A study of Bos taurus with 38 samples.

Results

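A set of 3 liver genes of fatty acid and ketone body breakdown was followed cow by cow: HSD17B4 (ENSBTAG00000006978), HACL1 (ENSBTAG00000003718) and BDH2 (ENSBTAG00000002526), chosen by these identifiers as 3 of the 24616 genes counted. Liver biopsies came from 9 Holsteins and 10 Jerseys in a crossover design, so each of the 19 cows gave 1 library on a control, low concentrate diet (C) and 1 on a high concentrate diet (HC), 38 libraries in all, with the order of the diets differing between cows over 2 periods. Cows had been placed in a high-RFI or a low-RFI group by residual feed intake, the intake above or below that predicted, so that the cows labelled as high in feed efficiency are the low-RFI ones. Of the Holsteins 4 were high-RFI and 5 low-RFI, and of the Jerseys 5 belonged to either group; all were in parity 1, 2 or 3 and received both diets, and the labels name no genetic change. The tissue label could not be checked here against hepatocyte markers, since none of the 7 listed was among the 77 identifiers paired with a symbol.

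Peroxisomes shorten fatty acids that mitochondria handle poorly, such as very long, branched and dicarboxylic chains. HSD17B4, the D-bifunctional protein, carries out the hydration and dehydrogenation steps of peroxisomal beta-oxidation and also acts on the side chain of bile acid precursors. HACL1, 2-hydroxyacyl-CoA lyase, cleaves 1 carbon from 2-hydroxy fatty acids in alpha-oxidation, the route by which phytanic acid, a product of plant chlorophyll, is broken down. BDH2 is a cytosolic dehydrogenase that oxidises the ketone body 3-hydroxybutyrate and has also been tied to a siderophore that binds iron. All levels are in CPM, CPM being the read pairs of a gene scaled to a fixed total of the pairs assigned to genes in that library, and since no gene lengths were at hand the 3 genes are not ranked against each other by level.

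Each library held between 17472750 and 24478289 gene-assigned read pairs, with a median of 19814536. Counts ran from 10659 to 22042 pairs for HSD17B4, from 3883 to 10262 for HACL1 and from 554 to 2031 for BDH2, so all 3 were counted in every library and passed the filter on low counts in both breeds. A bulk biopsy does not tell fewer cells of a type apart from less RNA per cell. In 9 genes that were on in some Holsteins and off in others, the C and HC libraries of each Holstein were alike in all 9. For the 12 such genes of the Jerseys, the C and HC libraries were alike in all 12 in 8 cows but in 10 of 12 in cows 10 and 17. The C libraries of cows 10 and 17 matched each other in all 12, and so did their HC libraries. The C library of either cow matched the HC library of the other in 10 of 12. Exchanging libraries of the same diet between these cows would thus leave C and HC alike in only 10 of 12. An exchange that pairs the matching libraries would put diet labels in doubt along with cow numbers. Whether libraries were exchanged or the genes differed with diet was not tested. The fitted and within-cow Jersey results are therefore given with and without these 2 low-RFI cows, while the relations with the recorded RFI value, the spreads within and between cows and the likeness to other genes take in all 10 Jerseys.

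HSD17B4 was lower in Holsteins than in Jerseys. The 9 Holstein cow means (each the mean of the C and HC libraries) ran from 559 to 931 CPM with a median of 673, and the 10 Jersey means ran from 819 to 986 with a median of 925. High-RFI cows 7, 9 and 15 lay within the Jersey range and the other 6 Holsteins lay below it. The means were 708 ± 138 CPM (SD, n = 9) and 915 ± 55.2 (SD, n = 10), and an exact permutation test over cow means gave p = 0.000877 (two-sided, 3 genes tested). Fitted over all genes with parity, diet and RFI group in the model, the difference was -0.39 on the log2 scale (SE 0.067, edgeR quasi-likelihood adjusted p = 0.000233). That fit held no term for the cow and so took the 2 libraries of a cow as separate samples. Without cows 10 and 17 it gave -0.39 (SE 0.076, edgeR adjusted p = 0.00278). With each cow's libraries summed the value was -0.39 (edgeR adjusted p = 0.0152). Breed separated many genes, with 9.2% of the 11827 tested called, and 2 of the 3 genes described here were among them. That was 1088 genes, against 371 with each cow's libraries summed, 583 without cows 10 and 17 and 733 to 1571 with any 1 cow left out.

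BDH2 differed between the breeds in the other direction. Cow means ran from 52.9 to 94.5 CPM with a median of 70.3 in Holsteins and from 29.0 to 58.3 with a median of 35.8 in Jerseys, so the ranges overlapped. The Holstein mean was 71.0 ± 16.3 CPM (SD, n = 9) against 42.1 ± 12.1 (SD, n = 10), with p = 0.00092 in the exact permutation test. The fitted difference was 0.76 (SE 0.12, edgeR adjusted p = 0.000109). It was 0.61 without cows 10 and 17 (SE 0.13, edgeR adjusted p = 0.00514), and 0.77 with each cow's libraries summed (edgeR adjusted p = 0.02025). For HACL1 the difference did not pass, with 325 ± 56.9 CPM (SD, n = 9) in Holsteins and 341 ± 61.2 (SD, n = 10) in Jerseys (exact permutation p = 0.551), with a fitted log2 value of -0.07 (SE 0.086, edgeR adjusted p = 0.65), or -0.08 (SE 0.093) without cows 10 and 17.

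**Figure D1:**
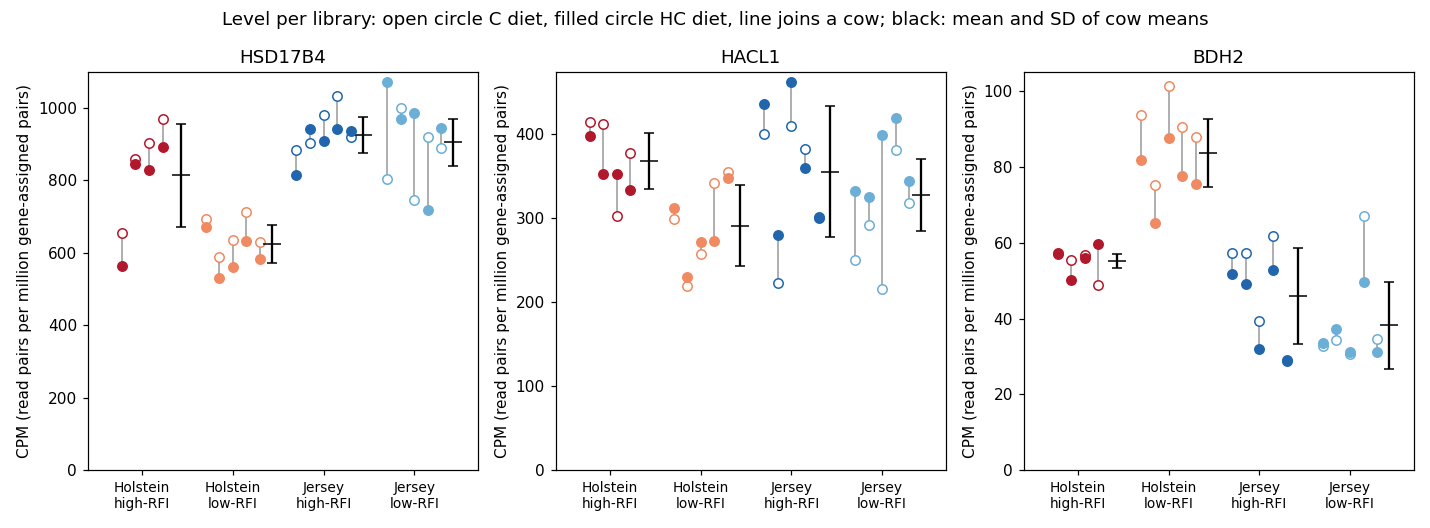
CPM of HSD17B4, HACL1 and BDH2 in each library, grouped by breed and RFI group; open circles are C, filled circles HC, a line joins the libraries of a cow, and black bars give the mean and SD of the cow means. BDH2 sits between 70.3 and 94.5 CPM in the low-RFI Holstein cow means and at or below 58.3 in all other groups, and HSD17B4 lies at 559 to 682 in the same 5 cows, a range that among the other cows holds high-RFI Holstein cow 2 alone.

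The breeds were also set side by side within each RFI group, and the test of whether their gap differs between the groups is the RFI by breed term given with the RFI comparison. Among low-RFI cows, HSD17B4 cow means were 559 to 682 CPM in Holsteins and 819 to 984 in Jerseys, without overlap, whereas among high-RFI cows they overlapped, at 608 to 931 and 849 to 986. For BDH2 the Holsteins were the higher breed. Its low-RFI cow means were 70.3 to 94.5 CPM in Holsteins and 30.9 to 58.3 in Jerseys, without overlap, and its high-RFI means overlapped at 52.9 to 57.1 and 29.0 to 57.2. HACL1 overlapped between the breeds in both RFI groups. How many of all genes lacked overlap was not counted for any split of cows, here or below, so a lack of overlap is a description only.

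Ordered by level, HSD17B4 was lowest in low-RFI Holsteins (624 ± 52.6 CPM, SD, n = 5), followed by high-RFI Holsteins (814 ± 142, SD, n = 4), low-RFI Jerseys (905 ± 63.9, SD, n = 5) and high-RFI Jerseys (926 ± 49.8, SD, n = 5). Each group overlapped with its neighbour in that order. HACL1 ran from low-RFI Holsteins (291 ± 48.1 CPM, SD, n = 5) through low-RFI Jerseys (327 ± 43.0, SD, n = 5) and high-RFI Jerseys (355 ± 78.1, SD, n = 5) to high-RFI Holsteins (368 ± 33.7, SD, n = 4), each neighbour overlapping the next. For BDH2 the order was low-RFI Jerseys (38.2 ± 11.4 CPM, SD, n = 5), high-RFI Jerseys (45.9 ± 12.7, SD, n = 5), high-RFI Holsteins (55.2 ± 1.94, SD, n = 4) and low-RFI Holsteins (83.7 ± 8.92, SD, n = 5), and only the last step was free of overlap.

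The RFI comparison asks which liver genes differ between less and more feed-efficient cows. All 3 genes are on the study's own list of Holstein DEGs for RFI, drawn from these same cows, so their Holstein differences are not independent evidence. In the edgeR fit 0.0665% of the 12025 genes tested were called (8 genes, and 5 under a random block for the cow), and of the 3 genes described here BDH2 was called. BDH2 was at 57.1, 52.9, 56.4 and 54.3 CPM in the high-RFI Holstein cows 2, 7, 9 and 15. It was at 87.8, 70.3, 94.5, 84.0 and 81.6 CPM in the low-RFI cows 1, 6, 11, 16 and 19. The groups did not overlap. The coefficient of variation of the cow means was 3.51% in the high-RFI cows against 10.7% in the low-RFI cows. Within a diet the spreads lay closer, at 6.99% against 10.6% on C and 7.12% against 10.7% on HC.

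The exact permutation test over the 9 Holstein cow means of BDH2 gave a difference of -28.5 CPM and p = 0.0159, where the smallest p the design allows is 0.00794. The fit gave -0.63 (SE 0.066, edgeR adjusted p = 0.000113), the third smallest p of all genes. A random block for the cow left an adjusted p of 0.000896 (limma). Summing both libraries of a cow leaves 9 samples, for which the value was again -0.63 but the adjusted p was 0.162 (edgeR).

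HSD17B4 and HACL1 had the opposite sign to BDH2 in Holsteins. HSD17B4 was at 608, 851, 866 and 931 CPM in the high-RFI cows 2, 7, 9 and 15, and at 682, 559, 597, 673 and 607 in the low-RFI cows 1, 6, 11, 16 and 19. Cow 2 alone among the high-RFI cows lay within the low-RFI range. The difference was 190.3 CPM (exact permutation p = 0.0317), and the fit gave 0.34 (SE 0.091, edgeR adjusted p = 0.279), not called. Without cow 2 the fit gave 0.52 (edgeR adjusted p = 0.0229), but leaving out any other single Holstein gave no call. The lowest value was 0.23, without cow 11 (edgeR adjusted p = 0.597). With each cow's libraries summed the value was 0.34 (edgeR adjusted p = 0.987). DESeq2 on all cows, with the 2 libraries of a cow taken as separate samples, called the gene (adjusted p = 0.0316).

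HACL1 was at 406, 382, 328 and 356 CPM in the high-RFI Holsteins 2, 7, 9 and 15. It was at 306, 224, 265, 307 and 351 CPM in the low-RFI cows 1, 6, 11, 16 and 19. The ranges overlapped through cow 19. The difference of 77.3 CPM gave p = 0.0397 in the exact permutation test, and the fit gave 0.38 (SE 0.099, edgeR adjusted p = 0.249). DESeq2 gave an adjusted p of 0.0344, whereas edgeR with each cow's libraries summed gave 0.38 with an adjusted p of 0.987. Cow 2, lowest of the high-RFI Holsteins for HSD17B4, was the highest for HACL1.

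The RFI groups had been formed within selection blocks, which the permutations of cows above do not respect. In Holsteins 4 blocks held a cow of each group and cow 19 was without a partner. The RFI values of the Holstein groups overlapped, since high-RFI cow 15 had a lower value than low-RFI cow 1 of another block. Block 4, with cows 7 and 1, held the pair closest in RFI value. The high-RFI cow was the higher one in 4 of 4 blocks for HSD17B4 and for HACL1, and the lower one in 4 of 4 for BDH2. The BDH2 differences were -38.2, -13.2, -29.7 and -34.9 CPM in blocks 1, 2, 3 and 4. The mean differences within blocks were 186 ± 102 CPM for HSD17B4, 92.4 ± 60.5 for HACL1 and -29.0 ± 11.1 for BDH2 (SD, n = 4). Exact sign flips over the blocks gave p = 0.125 for each gene, the smallest that 4 blocks allow. With the block in place of parity the fit gave 0.35 for HSD17B4 (SE 0.075, edgeR adjusted p = 0.0772). It gave 0.42 for HACL1 (SE 0.089) with the same adjusted p, so neither was called, and BDH2 was called at -0.61 (edgeR adjusted p = 0.000459).

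Of 44 symbols on the marker lists, 2 could be matched, the T and NK cell genes CD3D and NKG7. Their summed level was 16.1 to 20.2 CPM in the high-RFI Holstein cow means and 11.2 to 13.8 in the low-RFI ones, without overlap, and 9.53 to 14.6 and 11.3 to 16.8 CPM in high-RFI and low-RFI Jerseys. The fit gave CD3D 0.59 in Holsteins (SE 0.16, edgeR adjusted p = 0.282) and NKG7 0.51 with an adjusted p of 0.22 (edgeR), neither called. Over the 19 cow means, centred by breed, CD3D ranked 9 of 11826 genes for likeness to HSD17B4 (r = 0.64). The part of such cells in the values of HSD17B4 and HACL1 was not tested, and none of the other markers could be read. ACOT8, a peroxisomal acyl-CoA thioesterase, was the one further gene of the peroxisomal and ketone lists that could be matched. For RFI it was at 0.58 in Holsteins (SE 0.13, edgeR adjusted p = 0.162). In Jerseys its RFI value was -0.0074 (SE 0.14, edgeR adjusted p = 0.998). Only 4 of the 103 symbols on those lists had an identifier, these 3 genes included, so no count over the pathway is given.

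None of the 3 genes was called for RFI in Jerseys, against 0.0336% of the 11905 genes tested. BDH2 was at 54.6, 53.2, 35.7, 57.2 and 29.0 CPM in the high-RFI cows 3, 4, 12, 13 and 18. In the low-RFI cows 5, 8, 10, 14 and 17 it was at 33.0, 35.8, 30.9, 58.3 and 32.8 CPM. The Jersey values fell into separate ranges that crossed the RFI groups, 4 cows between 53.2 and 58.3 CPM and 6 between 29.0 and 35.8. The upper range held the high-RFI cows 3 and 4 of parity 3 and 13 of parity 1, and the low-RFI cow 14 of parity 1.

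The Jersey difference of BDH2 was 7.78 CPM (exact permutation p = 0.452) and 0.28 in the fit (SE 0.16, edgeR adjusted p = 0.927). Without cows 10 and 17 it was 0.23 (SE 0.2, edgeR adjusted p = 0.866). HSD17B4 was at 849 to 986 CPM in high-RFI and 819 to 984 in low-RFI Jerseys (exact permutation p = 0.579), with a fitted value of 0.05 (SE 0.079, edgeR adjusted p = 0.993). HACL1 was at 251 to 435 and 291 to 400 CPM (exact permutation p = 0.492), with a fitted value of 0.14 (SE 0.13, edgeR adjusted p = 0.988). With cows 10 and 17 left out these became 0.05 (SE 0.10) and 0.04 (SE 0.15). Of the 5 Jersey blocks the high-RFI cow was higher in 3 for HSD17B4, 3 for HACL1 and 4 for BDH2 (exact sign-flip permutation p = 0.625, 0.562 and 0.562).

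The RFI effect was compared directly between the breeds in a model with an RFI by breed term, in which 0.0338% of the 11827 genes were called (4 genes; DESeq2 called 36, and a random block by cow called 0 with 721 at an unadjusted p under 0.05). The Holstein effect of BDH2 minus its Jersey effect was -0.85 (SE 0.19, edgeR adjusted p = 0.0814), which did not pass. DESeq2 called it (adjusted p = 0.0132). Leaving out cow 14 gave -1.06 (edgeR adjusted p = 0.00223) and leaving out cow 18 gave -0.99 (edgeR adjusted p = 0.00502). Leaving out any other single cow did not give a call, with -0.72 (edgeR adjusted p = 0.22) without cow 11. The genes are on the study's Holstein RFI list from these same cows, so this term is not independent of that choice. Summing each cow's libraries left an adjusted p of 0.735, and leaving out cows 10 and 17 gave -0.74 (edgeR adjusted p = 0.119). For HSD17B4 the term was 0.33 (SE 0.12, edgeR adjusted p = 0.443). For HACL1 it was 0.20 with an adjusted p of 0.904. These became 0.35 (SE 0.13) and 0.23 (SE 0.18) with cows 10 and 17 left out.

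**Figure D2:**
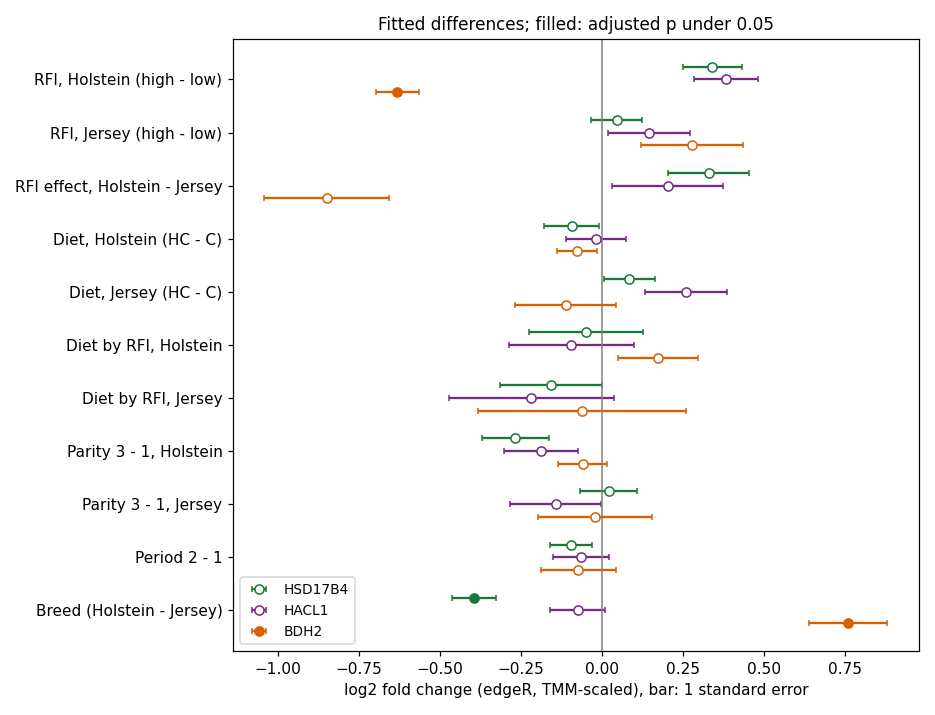
Fitted log2 fold changes of the 3 genes for each comparison, with bars of 1 standard error; filled points have an edgeR adjusted p under 0.05. The filled points are BDH2 for RFI in Holsteins (-0.63), and HSD17B4 (-0.39) and BDH2 (0.76) for breed.

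The diet comparison asks how the liver responded to more concentrate. In the fits neither breed gave a call for these genes, against 0.782% of genes called in Holsteins (94 genes, and 345 with a fixed block for each cow) and 0.37% in Jerseys (44 genes, and 71 with that block). Since every cow received both diets, the HC and C libraries were also compared within cows. HSD17B4 on C was 653, 858, 904 and 970 CPM in the high-RFI Holsteins 2, 7, 9 and 15, and 562, 844, 828 and 891 on HC. The low-RFI cows 1, 6, 11, 16 and 19 had 694, 588, 635, 713 and 630 CPM on C against 671, 530, 559, 633 and 583 on HC. Every Holstein was lower on HC, by ratios of 0.861 to 0.985.

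The mean change of HSD17B4 in Holsteins was -60.3 ± 27.4 CPM (SD, n = 9, exact sign-flip permutation p = 0.00391, the smallest that 9 cows allow). This depended on how the libraries were scaled. On TMM-scaled CPM, which allow for shifts in the most abundant genes, 7 of 9 cows were lower on HC and the mean change was -45.1 CPM (exact permutation p = 0.0625). The fit, with TMM scaling taken within Holsteins rather than over both breeds, gave -0.09 (SE 0.084, edgeR adjusted p = 0.737). It gave -0.10 with each cow as a fixed block (edgeR adjusted p = 0.473).

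Jerseys were split for HSD17B4, with 5 cows higher and 5 lower on HC and ratios from 0.78 to 1.34. The mean change was 15.5 ± 147 CPM (SD, n = 10, exact sign-flip permutation p = 0.766), and -17.5 CPM (p = 0.711, exact) without cows 10 and 17. The fit gave 0.08 (SE 0.079, edgeR adjusted p = 0.72), and 0.04 without those cows. The widest moves were all in low-RFI Jerseys. From C to HC, cow 5 went from 803 to 1072 CPM, cow 10 from 744 to 987 and cow 14 from 920 to 718. Cows 5 and 10 received HC first and cow 14 received C first. Their period 2 minus period 1 changes were thus -269, -242 and -202 CPM. Within a single cow diet cannot be told apart from period. The libraries of cow 10 are among those whose labels are in doubt. The within-cow spread of log2 CPM was 0.16 in Jerseys, above the spread of 0.091 between their cow means, whereas in Holsteins it was 0.10 within and 0.27 between cows.

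HACL1 was higher on HC in Jerseys. On C it was 400, 222, 409, 382 and 301 CPM in the high-RFI cows 3, 4, 12, 13 and 18, which had 436, 280, 462, 359 and 300.5 CPM on HC. The low-RFI cows 5, 8, 10, 14 and 17 had 250, 291, 215, 381 and 317 CPM on C against 332, 325, 399, 419 and 344 on HC. It was higher on HC in 8 of 10 cows, in all 5 low-RFI ones, and by a ratio of 1.85 in cow 10, the largest of the 19 cows.

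The mean change of HACL1 in Jerseys was 48.7 ± 55.8 CPM (SD, n = 10, exact sign-flip permutation p = 0.00781). On TMM-scaled CPM all 10 cows were higher on HC (61.2 CPM, exact permutation p = 0.00195, the smallest that 10 cows allow). The change was 34.5 CPM without cows 10 and 17 (n = 8, exact permutation p = 0.0312). In all 6 such within-cow tests of diet were run, 3 genes in 2 breeds, and the values above are not adjusted. Over all genes the fit gave 0.26 (SE 0.13, edgeR adjusted p = 0.443), and 0.28 with the cow as a fixed block (SE 0.081, adjusted p 0.161). Without cows 10 and 17 it gave 0.20 (SE 0.14, edgeR adjusted p = 0.734), and none of these was a call.

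In Holsteins HACL1 went either way. Of them 4 were higher and 5 lower on HC, with ratios from 0.796 to 1.17 and a mean change of -11.9 ± 39.2 CPM (SD, n = 9, exact sign-flip permutation p = 0.402). The fit gave -0.02 (SE 0.093, edgeR adjusted p = 0.97). The change in Holsteins minus that in Jerseys was -60.6 CPM (exact permutation p = 0.00895, 0.0403 after Benjamini-Hochberg adjustment over 9 such differences, a test added after the data were seen). Without cows 10 and 17 it was -46.4 CPM (exact permutation p = 0.0208 before adjustment).

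BDH2 was lower on HC in 7 of 9 Holsteins and 7 of 10 Jerseys. In the low-RFI Holsteins 1, 6, 11, 16 and 19 it went from 93.7 to 81.9, from 75.4 to 65.2, from 101 to 87.7, from 90.5 to 77.6 and from 87.8 to 75.4 CPM. These 5 ratios lay between 0.858 and 0.874. The closeness of the 5 changes depended on the scaling. Their mean was -12.2 ± 1.34 CPM (SD, n = 5), and -8.67 ± 5.59 on TMM-scaled CPM, with all 5 still lower on HC. In the high-RFI Holsteins 2, 7, 9 and 15 it went from 57.0 to 57.3, from 55.5 to 50.3, from 56.9 to 55.9 and from 48.9 to 59.6 CPM, 2 higher and 2 lower.

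The low-RFI Holsteins thus changed by -12.2 CPM on average and the high-RFI ones by 1.19 CPM. The 2 sets of changes did not overlap in CPM. The difference of 13.4 CPM had p = 0.00794 in an exact permutation test, the smallest the design allows, and 0.0403 after adjustment over the 9 differences, again a test added after the data were seen. On log2 CPM it was 0.24 (exact permutation p = 0.00794), and on TMM-scaled CPM 9.45 (exact permutation p = 0.0397), both before adjustment. In the fit across genes the diet by RFI term of BDH2 was 0.17 (SE 0.12, edgeR adjusted p = 1). No gene was called for that term, with a percentage of 0 in both breeds, although 206 genes in Holsteins and 443 in Jerseys had an unadjusted edgeR p under 0.05, and DESeq2 called 0 and 2 genes.

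In Jerseys BDH2 was lower on HC in 5 of 5 high-RFI cows and 2 of 5 low-RFI cows. In cows 3, 4, 12, 13 and 18 it went from 57.4 to 51.8, from 57.3 to 49.0, from 39.4 to 32.0, from 61.7 to 52.8 and from 29.2 to 28.9 CPM. Cow 14 went from 67.0 to 49.6 CPM, while the other 4 low-RFI cows kept to 30.7 to 34.5 on C and 31.1 to 37.3 on HC. All 4 cows of the upper range were lower on HC. The mean Jersey change was -4.71 ± 6.15 CPM (SD, n = 10, exact sign-flip permutation p = 0.0391), -3.22 CPM on TMM-scaled values (exact permutation p = 0.176) and -5.52 CPM without cows 10 and 17 (exact permutation p = 0.0547).

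The mean Holstein change of BDH2 was -6.25 ± 8.23 CPM (SD, n = 9, exact sign-flip permutation p = 0.0469), and on TMM-scaled values -4.47 CPM (exact permutation p = 0.105). The fitted diet value was -0.08 in Holsteins (SE 0.063, edgeR adjusted p = 0.696). In Jerseys it was -0.11 with an SE of 0.16 (edgeR adjusted p = 0.824). The Jersey fit without cows 10 and 17 gave -0.13 (SE 0.19). On the log2 scale the spread of BDH2 was 0.13 within and 0.33 between cows in Holsteins and 0.15 and 0.40 in Jerseys, against 0.12 and 0.27, and 0.24 and 0.27, for HACL1. The other 5 diet by RFI terms of the 3 genes lay within 1 SE of 0 in the fits.

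**Figure D3:**
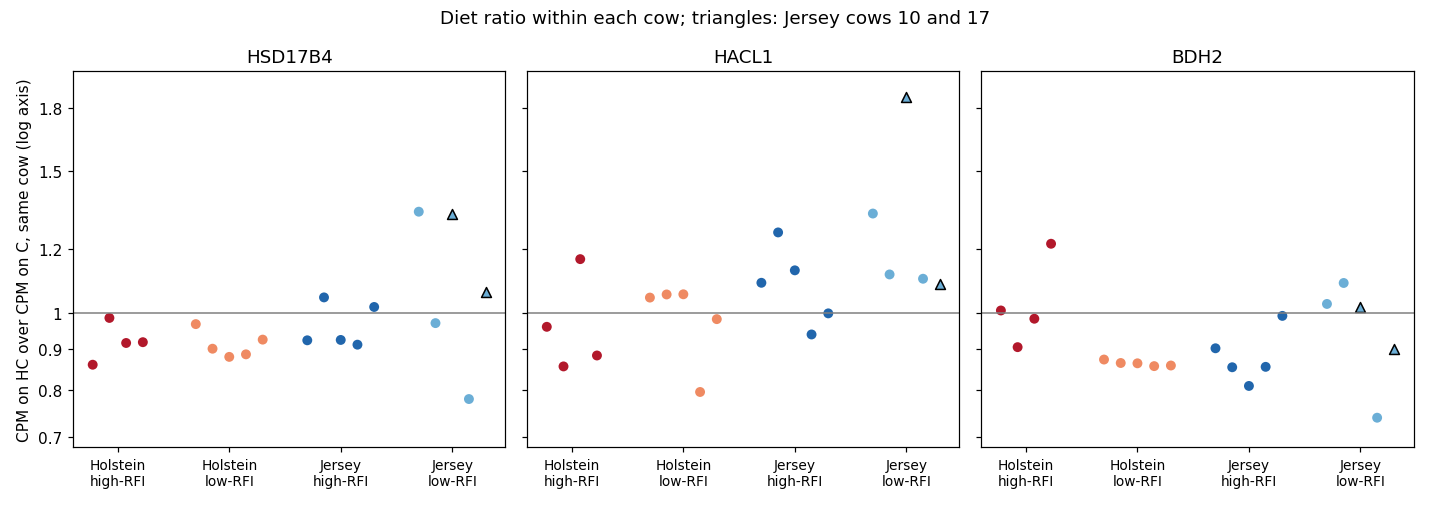
CPM on HC divided by CPM on C in the same cow, on a log axis, by breed and RFI group; the line marks no change and triangles mark Jersey cows 10 and 17. HSD17B4 lies below the line in all 9 Holsteins, HACL1 above it in 8 of 10 Jerseys, and BDH2 between 0.858 and 0.874 in the 5 low-RFI Holsteins.

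Parity 3 was compared with parity 1. HSD17B4 in Holsteins was at 682, 608 and 559 CPM in the third-parity cows 1, 2 and 6 and at 931, 673 and 607 CPM in the first-parity cows 15, 16 and 19. The groups overlapped, and the fit gave -0.27 (SE 0.10, edgeR adjusted p = 0.333), not called, where 0.383% of genes were (46 genes, or 7 under a random block by cow). The one third-parity high-RFI Holstein was cow 2, and with it left out the value was -0.093 (edgeR adjusted p = 0.784). HACL1 was at -0.19 (SE 0.11, edgeR adjusted p = 0.585). BDH2 was at -0.06 (SE 0.077) with an adjusted p of 0.839.

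In Jerseys 0.227% of genes were called for parity (27 genes, and 10 with that block) and none of the 3 was. The 4 third-parity and 4 first-parity cows had HSD17B4 means of 923 ± 56.0 and 912 ± 69.3 CPM (SD, n = 4 each). HACL1 was at 317 ± 71.5 and 351 ± 43.6 CPM, and BDH2 at 44.2 ± 11.3 and 44.3 ± 15.6 CPM. The fitted values were 0.02 (SE 0.088), -0.14 (SE 0.14) and -0.02 (SE 0.18). Leaving out cows 10 and 17 gave 0.04, -0.15 and -0.10.

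Period, the order of sampling, called no gene in edgeR (0% of 11827, with 500 genes at an unadjusted p under 0.05, and 0 in DESeq2). HSD17B4 was 838 ± 156 CPM in period 1 and 796 ± 154 in period 2 (SD, n = 19 each). HACL1 was 337 ± 51.8 and 330.3 ± 76.7 CPM, and BDH2 56.7 ± 21.6 and 54.9 ± 19.9 CPM. Within cows the exact sign-flip tests gave p = 0.105, 0.671 and 0.374 for HSD17B4, HACL1 and BDH2. The fitted values were -0.10, -0.06 and -0.07, each with an edgeR adjusted p of 0.997. HSD17B4 was lower in period 2 in 8 of 10 Jerseys and 4 of 9 Holsteins. Its mean change from period 1 to 2 was -79.6 ± 121 CPM in Jerseys (SD, n = 10) and 0.33 ± 69.6 CPM in Holsteins (SD, n = 9). Period was not tested within a breed.

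The relation of HSD17B4 with HACL1 across cows did not pass after adjustment in either breed. Over log2 cow means, Pearson's r was 0.48 in the 9 Holsteins (exact permutation p = 0.187, adjusted 0.373 over 6 relations) and Spearman's rho 0.53 (exact permutation p = 0.148, adjusted 0.295). Leaving out the 2 cows farthest from the HSD17B4 median gave r = 0.52 (n = 7). After subtracting the mean of each RFI group r was -0.03. In the 10 Jerseys r was -0.25 (permutation p = 0.49, adjusted 0.49) and rho -0.07 (permutation p = 0.866, adjusted 0.866). Without the 2 farthest Jerseys r was 0.38, and without cows 10 and 17 it was -0.36. By diet, the Jersey r was 0.64 on C (permutation p = 0.0435, adjusted 0.13) and -0.52 on HC (permutation p = 0.126, adjusted 0.225).

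No pooled correlation within a breed is given for BDH2 with the other 2 genes or with the RFI value, since its cow means fell into separate ranges in each breed. In Holsteins the ranges held 4 and 5 cows, too few for a correlation within either. With the RFI group means subtracted, the Holstein r was 0.06 with HSD17B4 and 0.36 with HACL1 (exact permutation p = 0.861 and 0.334). In the 6 Jerseys of the lower range, r was 0.62 with HSD17B4 (rho 0.83) and 0.53 with HACL1 (rho 0.37). The exact permutation p-values were 0.185 and 0.321 for r and 0.0583 and 0.497 for rho. Cows 10 and 17, whose labels are in doubt, are among these 6, and the values were not computed without them.

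**Figure D4:**
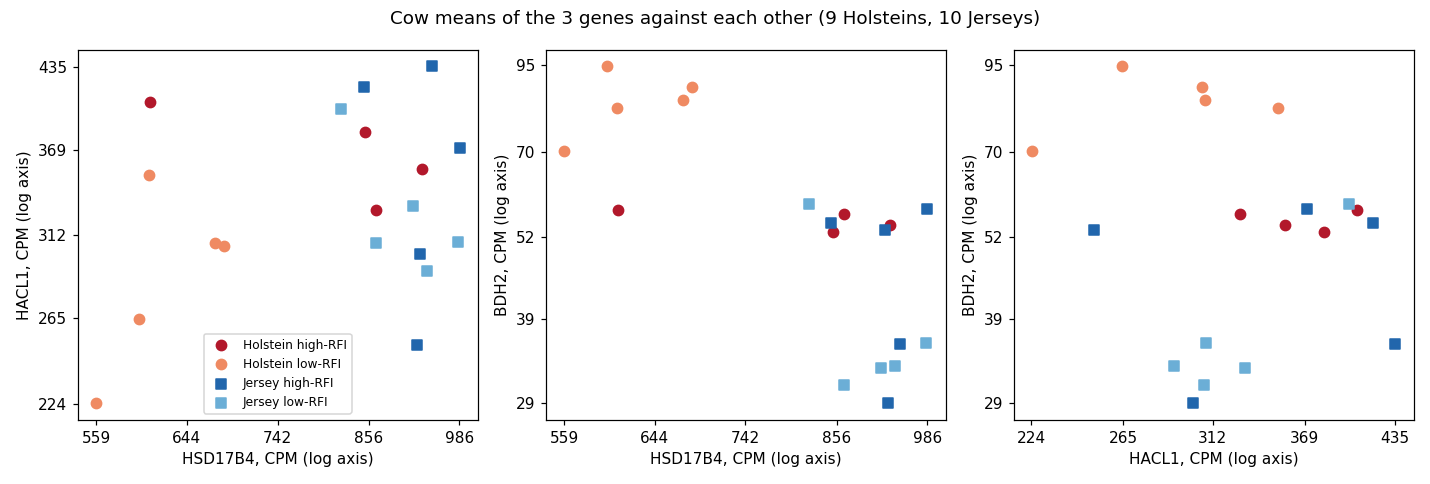
Cow means of the 3 genes plotted against each other in CPM on log axes, with circles for Holsteins and squares for Jerseys, coloured by RFI group. The 5 low-RFI Holsteins combine HSD17B4 of 559 to 682 CPM with BDH2 of 70.3 to 94.5, and the Jerseys form separate BDH2 ranges at 29.0 to 35.8 and 53.2 to 58.3 CPM.

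Against the RFI value recorded for each cow, with adjustment over 6 relations that count those of BDH2, HSD17B4 had r = 0.48 in Holsteins (exact permutation p = 0.192, adjusted 0.288; rho 0.55, exact permutation p = 0.133, adjusted 0.266) and 0.42 without the 2 cows farthest from the median RFI. HACL1 had r = 0.61 (exact permutation p = 0.081, adjusted 0.243; rho 0.68, exact permutation p = 0.0503, adjusted 0.257) and 0.57 without those cows. In Jerseys r was -0.02 for HSD17B4 (permutation p = 0.957, adjusted 0.957; rho 0.01, permutation p = 1, adjusted 1) and 0.30 for HACL1 (permutation p = 0.394, adjusted 0.473; rho 0.13, permutation p = 0.733, adjusted 0.88). Without the 2 farthest cows these were 0.11 and -0.17.

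Across all 19 cows, with each breed centred on its own mean, the gene most like BDH2 of the 11826 others was ENSBTAG00000020720 (r = 0.75), and MTFP1, a mitochondrial fission protein that is also on the study's Holstein list, ranked 5 (r = 0.72). Both values take in the separate ranges of BDH2. For HSD17B4 the highest r was 0.70 and for HACL1 0.75, both for genes without a paired symbol. HACL1 ranked 1908 for likeness to HSD17B4 (r = 0.25). These values share the libraries and their scaling and are a description only.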

How the data were processed

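Liver mRNA of 19 cows was sequenced by the study from stranded TruSeq libraries, trimmed with cutadapt, aligned with STAR 2.3.0 to UMD3.1 allowing 5 mismatches, and counted by HTSeq on Ensembl release 82 genes; the HTSeq version and its strand setting are not given in the sources used here. The authors deposited raw counts per gene for each of the 38 libraries, and no normalization had been applied. Of the read pairs listed, 74.9 to 79.9% were on genes; rows without a gene were left out of library sizes. All libraries ran in 1 pool, and no 2 of the 703 pairs of libraries were identical or alike within sampling noise (chi-square per degree of freedom at least 12.9).

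The members and gene lists were chosen with earlier results of these data known. The symbols come from the study's own gene lists, which pair 77 identifiers. Genes named are the 3 members, matched list genes, and those most alike over cow means; list genes past the threshold were to be named, and none beyond the members was. CPM was computed on the gene total. Genes were tested if they reached 1 CPM in 8 or more Holstein libraries (12025) or in 10 or more of the Jerseys (11905), and across both breeds if they met both (11827). Models held parity, diet and RFI group within a breed, as the study's did, with a diet by RFI, breed, RFI by breed or period term where named. Tests used edgeR 4.0.16 (quasi-likelihood, TMM) with Benjamini-Hochberg adjustment at 0.05; DESeq2 1.42.0, limma 3.58.1 with cow blocks, and the other settings in the closing section were alternatives. The main edgeR fits and the DESeq2 fits held no term for the cow. Scripts were tested on simulated data. The 2 libraries of a cow come from 1 animal and so are paired, and over 11896 genes their deviations from group means correlated in all 9 Holsteins (r from 0.213 to 0.575) and, above 0.1, in 8 of 10 Jerseys (lowest -0.0954). Single genes were tested by exact permutation of cows or exact sign flips within cows, and correlations by exact pairings for 9 cows or 100000 resamples for 10. Selection blocks, RFI values and diet order come from the list of cows in the study's methods. Its RFI group column calls High the cows whose labels give high feed efficiency, taken here as low-RFI, since in all 9 blocks with a cow of each group theirs was the lower RFI value.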

Additional observations from a re-analysis of the deposited data

Results flagged for a closer look

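BDH2 stood at 67.0 CPM in low-RFI Jersey cow 14 on C, far from the other 4 low-RFI Jerseys on that diet, which lay between 30.7 and 34.5 CPM. HSD17B4 was at 815 CPM in high-RFI Jersey cow 3 on HC, below the other 4 cows, which lay between 907 and 943 CPM. These were the 2 groups of 24 examined in which 1 library stood apart by Dixon's 95% criterion, and chance flags about 1 group in 20.

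The HC minus C change of HACL1 differed between the breeds by -60.6 CPM (exact permutation p = 0.00895), and that of BDH2 differed between high-RFI and low-RFI Holsteins by 13.4 CPM (exact permutation p = 0.00794). Both had an adjusted p of 0.0403 over the 9 differences tested.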

How the results depend on the processing

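Of the 33 fitted values of the 3 genes, the breed calls of HSD17B4 and BDH2 held under every alternative run. Summing each cow's libraries left BDH2 in the Holstein RFI fit at -0.63 and no longer called; DESeq2 called HSD17B4 (0.34) and HACL1 (0.38) there and the BDH2 difference between breeds (-0.85). The replicate block by cow changed no call of the 3 genes; the BDH2 parity value in Jerseys turned to 0.035 with a random block. Counts over all genes moved more, in the fits other than leaving out 1 cow: from 8 to between 0 and 61 for RFI in Holsteins, from 4 to 0 to 21 in Jerseys and from 4 to 0 to 36 for their difference, from 94 to 48 to 345 for diet in Holsteins and from 44 to 0 to 196 in Jerseys, from 46 to 1 to 199 and from 27 to 0 to 269 for parity, and from 1088 to 371 to 1325 for breed. Leaving out 1 cow gave 4 to 16, 1 to 6 and 0 to 31 for RFI, 15 to 135 and 3 to 51 for diet, 7 to 87 and 3 to 98 for parity, and 733 to 1571 for breed.

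Leaving out 1 cow gave ranges of 0.23 to 0.52 for HSD17B4 (RFI, Holstein), -1.06 to -0.72 for BDH2 (RFI difference), -0.014 to 0.25 for HACL1 (RFI, Jersey), -0.12 to 0.0099 for HSD17B4 (diet by RFI, Holstein), -0.20 to 0.0043 for BDH2 (diet by RFI, Jersey) and -0.052 to 0.013 for HACL1 (diet, Holstein). For parity they were -0.14 to 0.027 (BDH2, Holstein), -0.24 to 0.21 (BDH2, Jersey) and -0.038 to 0.051 (HSD17B4, Jersey), all spanning 0, and -0.39 to -0.093 (HSD17B4, Holstein), -0.35 to -0.057 and -0.33 to -0.016 (HACL1, Holstein and Jersey).

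Within selection blocks, a comparison added after the data were seen, the Holstein RFI differences of 186, 92.4 and -29.0 CPM (HSD17B4, HACL1, BDH2) could not reach the threshold. Within cows, TMM scaling weakened the Holstein diet changes of HSD17B4 (-45.1 CPM) and BDH2 (-4.47) and the Jersey change of BDH2 (-3.22). On log2 CPM the Holstein BDH2 change was -0.10 (p = 0.117 by exact permutation), the HSD17B4 diet by RFI difference in Holsteins 0.011 and the BDH2 diet difference between breeds 0.029, both opposite in sign to the CPM values. Without cows 10 and 17 the Jersey diet change was -5.52 CPM for BDH2 and -17.5 for HSD17B4, and the period change of HACL1 was 1.97. The r of HSD17B4 with HACL1 changed sign in Holsteins with RFI means subtracted (-0.028) and in Jerseys without the farthest 2 cows (0.38) or on C alone (0.64). With the RFI value in Jerseys it changed sign for HSD17B4 on TMM-scaled CPM (0.18) or without the farthest 2 cows (0.11) and for HACL1 without them (-0.17). The causes were not tested. BDH2 rested on the fewest reads, from 554 pairs per library.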
